A study of Mus musculus with 10 samples.

Results

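The genes described here are 9 genes of the epidermal barrier, Alox12b, Aloxe3, Elovl4, Cers3, Abca12, Tgm1, Tgm3, Tgm5, and Casp14. They were chosen by name and not by a rule on their values, but with earlier results of these data known. All 9 were found among the 25814 genes listed for each library. RNA had been sequenced from 10 libraries, 2 for each of 5 groups. Primary keratinocytes from the tails of adult C57/B6 mice, grown in keratinocyte SFM with 0.06 mM Ca++, were lysed either without contact to T cells (keratinocytes alone) or following co-culture with CD8+ T cells, which were washed off before lysis. CD8+ T cells, enriched from spleens with microbeads, were collected after 1 d of activation by αCD3/CD28 Abs, after 1 further d in keratinocyte medium, or after co-culture with keratinocytes. No transgene and no gene deletion is given for any group. For the co-culture, the T-cell labels give 1 d and the deposited design text gives 1 h. The co-cultures held 1 part of X-VIVO, a Ca++-containing medium, for 4 parts of SFM. According to the paper, T cells in keratinocyte medium were kept in the same mixture, and activated T cells in X-VIVO. The sources used here do not tell whether keratinocytes alone received this mixture, and without it the effect of the medium and that of the T cells cannot be told apart.

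Keratinocytes leave the basal layer of the epidermis and end as corneocytes, dead cells within an envelope of cross-linked proteins that is surrounded by layers of lipids. ELOVL4 elongates fatty acids to very long chains, CERS3 joins such chains to the sphingoid base of ceramides, and ABCA12 loads lipids into the lamellar granules from which they are secreted. ALOX12B and ALOXE3 oxidize the linoleate of these ceramides in consecutive steps, which precedes their attachment to the envelope. The transglutaminases TGM1, TGM3, and TGM5 cross-link envelope proteins, and Caspase-14 takes part in the breakdown of filaggrin. In humans, inherited loss of several of these genes leads to ichthyosis. Ca++ is a known inducer of this program in cultured keratinocytes, whereas low Ca++ keeps the cells in a basal state.

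The libraries held 12864931 to 18019609 exon reads. The keratinocyte libraries carried the basal keratins Krt5 and Krt14 at 2837 to 4556 and 7240 to 11836 RPKM (reads normalized to the length of exons and to the number of mapped reads), and little Krt1 and Krt10, the keratins of the layers above (Krt1 at 0.509 to 7.10 and Krt10 at 0 to 1.52 RPKM). They were not free of T-cell transcripts. The summed RPKM of 5 CD8 T cell markers was 67.5 and 251.5 in keratinocytes alone and 83.9 and 453.6 after co-culture, higher in both libraries with the number 2, and nearly all of it was Cd3d, Cd3e, and Cd3g, since Cd8a was at 0.118 to 1.16 RPKM. Keratinocytes alone held 11.4 and 43.5 RPKM of Cd4, and co-cultured keratinocytes 15.0 and 84.5 RPKM. Summed markers of myeloid cells (37.5 to 68.6 RPKM), melanocytes (6.66 to 20.1), B cells (0.530 to 3.85), and fibroblasts (0.443 to 2.03) were lower than those of T cells in the keratinocyte libraries, and 0 of these markers were called between the groups by edgeR or DESeq2 (1, Col1a1, was lower at an unadjusted p under 0.05). The 6 T-cell libraries carried Cd8a at 110.0 to 333.9 RPKM, but also Cd4 at 16.8 to 102.3 RPKM. Their summed markers of B cells were at 16.6 to 92.3 RPKM and those of myeloid cells at 15.0 to 67.1 RPKM. The deposited design text speaks of 2 parallel experiments, but nothing in the sources ties a library to a separate animal or culture, so that p-values measure the spread between these libraries only.

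In keratinocytes alone, Tgm1 was the most abundant of the 9 genes (110.4 ± 25.5 RPKM, mean ± SD, n = 2 here and in all groups) and held rank 530 among all genes. Elovl4 (78.2 ± 35.1 RPKM) and Cers3 (76.0 ± 9.30 RPKM) followed, and the values of Tgm1 overlapped with those of Elovl4, and those of Elovl4 with those of Cers3. Abca12 was at 46.2 ± 5.88, Alox12b at 23.9 ± 6.84, Tgm5 at 12.1 ± 1.18, and Casp14 at 8.59 ± 2.92 RPKM, each apart from its neighbours. At the end stood Aloxe3 (1.09 ± 0.411 RPKM) and Tgm3 (0.977 ± 0.426 RPKM), which overlapped. Hence Alox12b prevailed over Aloxe3, and Tgm1 over Tgm5 and Tgm3. After co-culture, the order was Tgm1, Cers3, Elovl4, Alox12b, Abca12, Casp14, Tgm5, Aloxe3, and Tgm3, and only Elovl4 and Alox12b, Tgm5 and Aloxe3, and Aloxe3 and Tgm3 did not overlap as neighbours.

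**Figure D1:**
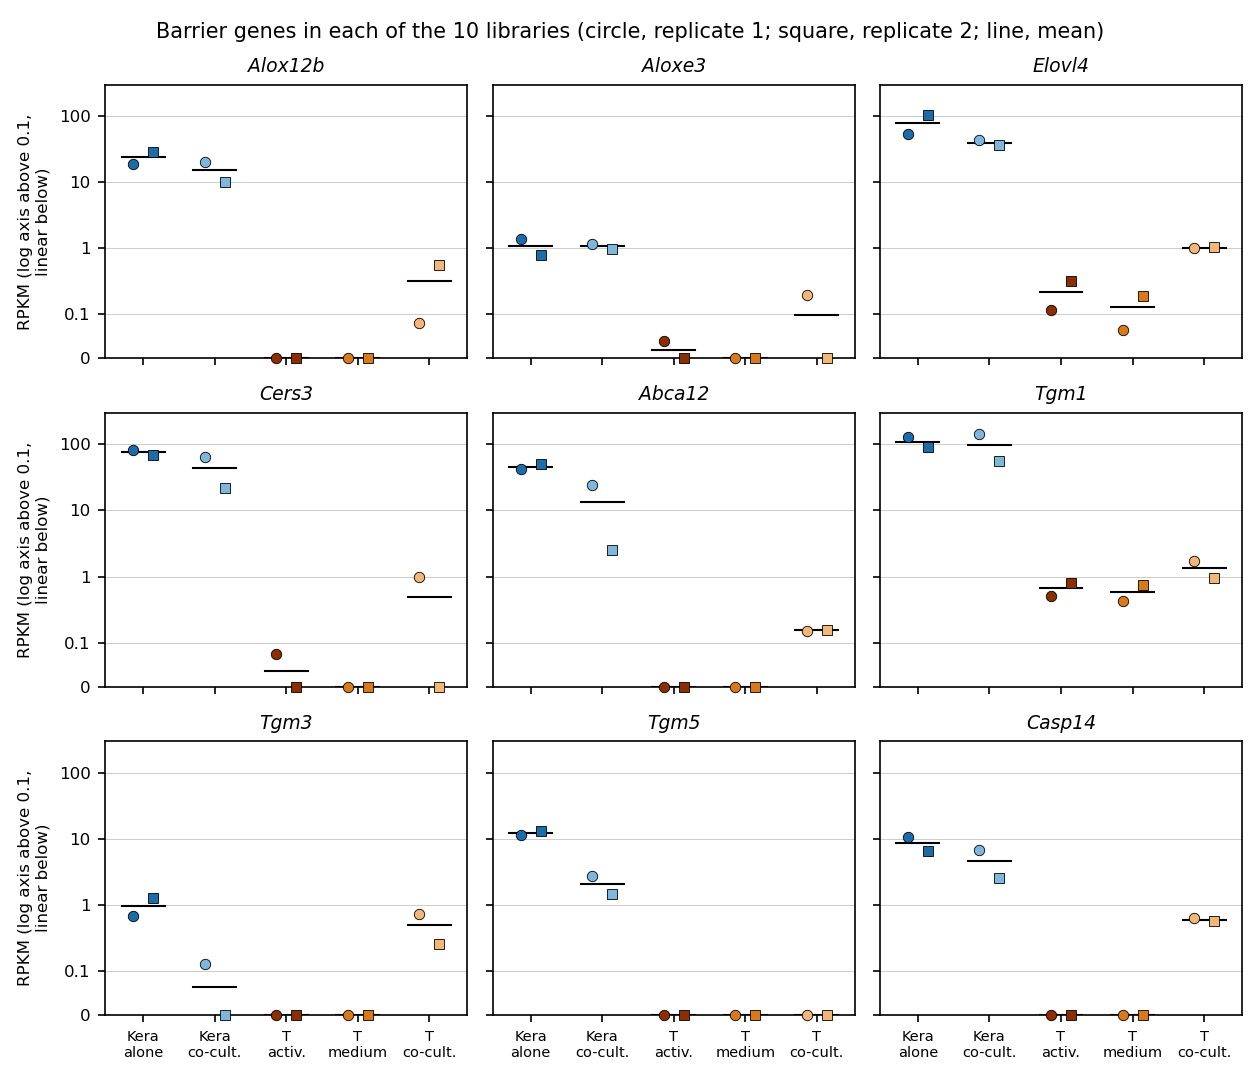
RPKM of the 9 barrier genes in all 10 libraries, 1 panel per gene, on an axis that is logarithmic above 0.1 and linear below; each point is a library and each line the mean of a group, and the numbers of T-cell libraries in medium and in co-culture are names only. The 4 keratinocyte libraries lie above the 6 T-cell libraries for all genes but Tgm3, and co-cultured keratinocytes lie below keratinocytes alone without overlap for Elovl4, Cers3, Abca12, Tgm3, and Tgm5.

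Among the genes of lipid synthesis and transport, Elovl4 (ENSMUSG00000032262, chr9:83778692-83806277, GRCm38, 9 exons) was measured with 53.4 and 103 RPKM in keratinocytes alone and with 43.0 and 36.3 RPKM after co-culture. The values of Cers3 (ENSMUSG00000030510, chr7:66743504-66823691, 13 exons) were 82.6 and 69.4 RPKM alone and 65.2 and 21.8 RPKM after co-culture. Neither gene overlapped between the groups, with lower values after co-culture, but the co-cultured libraries were farther from each other for Cers3 than the means of the groups were. Their log2 fold changes were -0.93 (standard error, SE, 0.43) and -0.76 (SE 0.53), with adjusted p = 0.658 and 0.679 in edgeR's quasi-likelihood test.

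Abca12 (ENSMUSG00000050296, chr1:71242276-71414910, 53 exons) encodes the lipid transporter of the lamellar granules. Keratinocytes alone held 42.0 and 50.4 RPKM of it, but co-cultured keratinocytes 24.3 RPKM in the first and 2.53 RPKM in the second library, i.e., 52.5% and 5.47% of the mean of keratinocytes alone. Both values were below those of keratinocytes alone, the second far more so than the first. The log2 fold change of Abca12 was -1.77 (SE 0.99, adjusted p = 0.658), or -4.07 without the first and -0.94 without the second co-cultured library.

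The lipoxygenase genes are neighbours on chromosome 11, with 7873 bp between the end of Aloxe3 (ENSMUSG00000020892, chr11:69125896-69149115, 18 exons) and the start of Alox12b (ENSMUSG00000032807, chr11:69156989-69169792, 15 exons). Alox12b reached 19.1 and 28.7 RPKM in keratinocytes alone, compared with 20.3 and 10.05 RPKM after co-culture. The groups overlapped, since the first co-cultured library lay between the libraries of keratinocytes alone, with a log2 fold change of -0.61 (SE 0.44, adjusted p = 0.684). Aloxe3 reached 1.38 and 0.798 RPKM alone and 1.18 and 0.964 RPKM after co-culture, with both co-cultured libraries within the range of the others. Its log2 fold change was 0.05 (SE 0.61, adjusted p = 0.976), and its sign depended on the normalization. At 41 to 79 reads per library a small change of Aloxe3 was not detectable.

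The transglutaminase genes differed among themselves. Tgm1, which encodes the membrane-bound enzyme of the keratinocyte (ENSMUSG00000022218, chr14:55700009-55713926, 24 exons), showed 128 and 92.4 RPKM in keratinocytes alone, compared with 142 and 56.1 RPKM after co-culture. The co-cultured libraries lay on either side of both libraries of keratinocytes alone, for a log2 fold change of -0.11 (SE 0.49, adjusted p = 0.941) and a sign that turned when the second co-cultured library was left out (0.35). Tgm1 shares exon bases with the antisense gene Gm49067, and since the kit is not stated to mark strand, reads of both cannot be told apart.

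Tgm5 (ENSMUSG00000053675, chr2:121046111-121085841, 13 exons) showed 11.3 and 12.9 RPKM in keratinocytes alone (558 and 575 reads) and 2.72 and 1.44 RPKM after co-culture (108 and 62 reads). Both co-cultured libraries were below the others by far more than the libraries of a group differed, at 22.5% and 11.9% of the mean of keratinocytes alone. The log2 fold change, -2.49 (SE 0.42, unadjusted p = 0.00214), had the smallest unadjusted p of the 9 genes, but with adjusted p = 0.523 over all 12515 genes tested it did not pass. DESeq2 called it (adjusted p = 0.00029), and 1.49% of all genes.

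Tgm3 (ENSMUSG00000027401, chr2:130012349-130050399, 13 exons) was low throughout, with 53 and 90 reads in keratinocytes alone (0.675 and 1.28 RPKM) and 8 and 0 reads after co-culture (0.127 and 0 RPKM). The groups did not overlap. Its log2 fold change of -3.91 had an SE of 1.5 and rests on few reads (unadjusted p = 0.0487, adjusted p = 0.658).

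Casp14 (ENSMUSG00000005355, chr10:78711991-78718294, 9 exons) reached 10.7 and 6.53 RPKM in keratinocytes alone and 6.79 and 2.58 RPKM after co-culture. The groups overlapped by a narrow margin, as the first co-cultured library was above the second library of keratinocytes alone. This gave a log2 fold change of -0.82 (SE 0.55, adjusted p = 0.672).

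Thus none of the 9 genes was called in keratinocytes by edgeR, where 0% of the 12515 genes tested were called in either direction. At an unadjusted p under 0.05, 2 of the 9 genes (Tgm3 and Tgm5) were lower and 0 higher, against 4.12% lower and 3.08% higher of all genes tested. In 5 of 9 genes the co-cultured libraries were below those of keratinocytes alone without overlap, against 24.3% of all genes (on TMM-scaled CPM also 5 of 9, against 23.5%), and in 0 they were above, against 19.8%. Their log2 fold changes had a median of -0.82, with 8 of 9 values below 0, against a median of 0.02 for all genes tested. Summed over the 9 genes, keratinocytes alone were at 349.5 and 365.5 RPKM, and co-cultured keratinocytes at 305.1 and 131.7 RPKM. The second co-cultured library was the lower one for all 9 genes. Without the first co-cultured library, 4 of the genes (Cers3, Abca12, Tgm3, and Tgm5) were called, against 8.88% of 13113 genes tested, and without the second one 0, against 0.163%. The co-cultured group is then a single library, which is assumed to vary like the libraries of keratinocytes alone. In such bulk libraries, fewer cells of a type and less RNA per cell cannot be told apart.

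**Figure D2:**
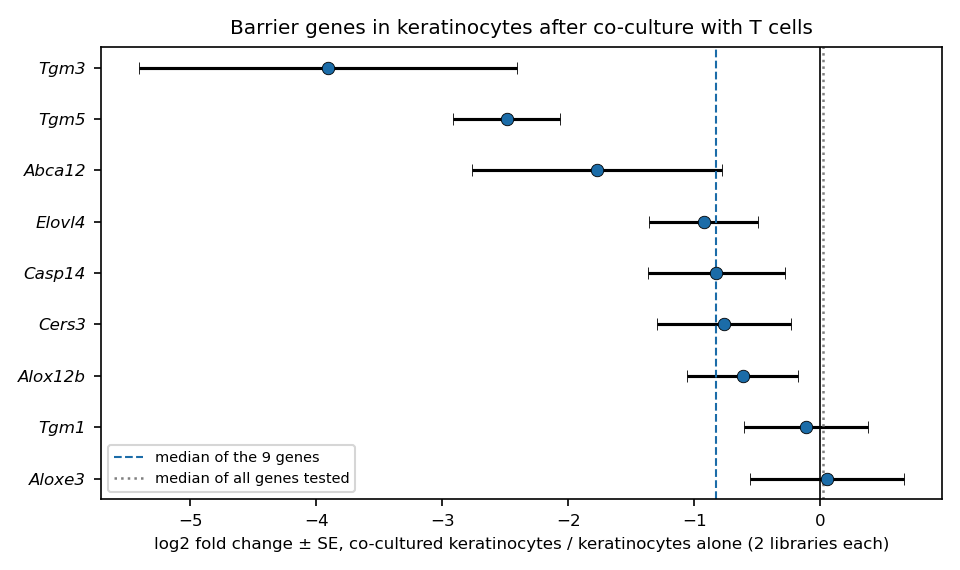
Log2 fold changes of the 9 genes between co-cultured keratinocytes and keratinocytes alone (x axis, log2 scale; bars, standard error from edgeR, 2 libraries per group). Values run from -3.91 for Tgm3 to 0.05 for Aloxe3, and the median of the 9 genes (dashed line, -0.82) lies below that of all genes tested (dotted line, 0.02).

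The length of a transcript moved with these differences. Across all genes tested, the median log2 fold change upon co-culture went from 0.377 for genes with up to 1000 bp of exons to -0.838 for genes with over 8000 bp. In the first co-cultured library, the median difference from keratinocytes alone was 0.01 for the shortest and -0.50 for the longest genes on the scale of log2(RPKM + 0.1), and in the second 0.48 and -1.45. Keratinocytes alone differed from each other in the same way, with 0.33 and -0.46 between the second and the first library. Abca12, with 9137 bp of exons, belongs to the longest genes, whereas the other 8 genes hold 2394 (Casp14) to 4135 bp (Tgm3). On that scale the difference of Abca12 from keratinocytes alone was -0.92 in the first co-cultured library and -4.13 in the second. With the trend of length removed, the log2 fold change of Abca12 was -1.29 (SE 0.77, adjusted p = 0.673). For Tgm5, with 2613 bp, it was -2.11 and -2.98, in a class of genes whose medians were 0.08 and 0.06. The part of RNA quality in these differences was not tested.

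**Figure D3:**
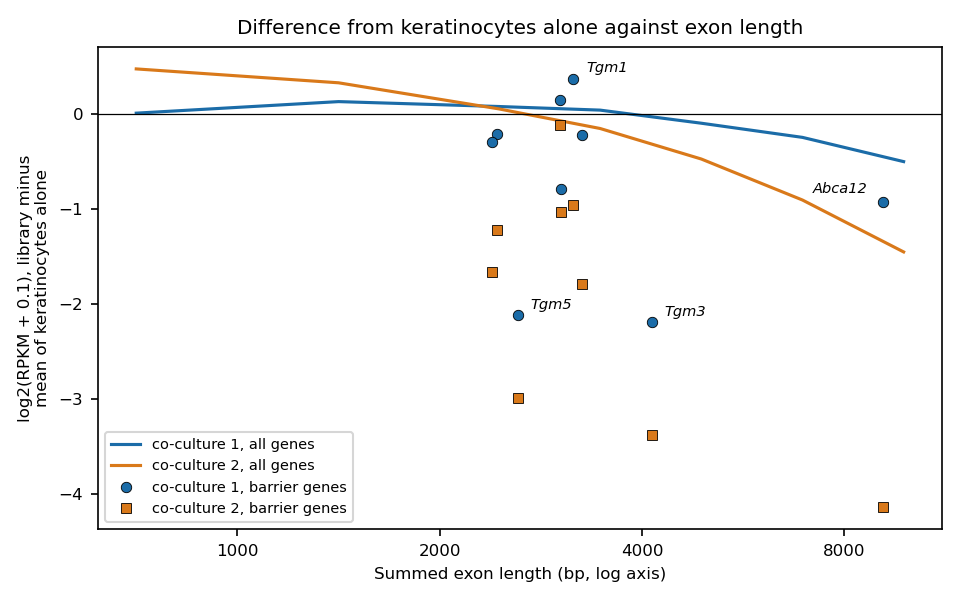
Difference of each co-cultured keratinocyte library from the mean of keratinocytes alone, in log2(RPKM + 0.1), against the summed exon length in bp (log axis); lines, medians of all genes by length class, points, the 9 barrier genes. The medians fall with length, more in the second library (to -1.45) than in the first (to -0.50). All of the 9 genes but Tgm1 and Aloxe3 lie below the line in each library. Tgm1 (0.378 and -0.957) lies above the line of the first library and below that of the second. Aloxe3 (0.148 and -0.115) lies above the line of the first library and close to that of the second.

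To see whether the letters of known elements are present, windows around the start sites of RefSeq (250 bases before and 50 after, build GRCm38.p6) were searched on both strands for 6 motifs. A window was at hand for 8 of the 9 genes, all but Aloxe3. Printed are the 150 bases before the start of Abca12, Tgm5, and Tgm3, the genes with the lowest log2 fold changes, and for comparison the 200 bases before 1 of 2 RefSeq starts of Tgm1, whose level overlapped between the groups. Capitals mark motif matches.
Abca12 (chr1:71414911-71415060, - strand): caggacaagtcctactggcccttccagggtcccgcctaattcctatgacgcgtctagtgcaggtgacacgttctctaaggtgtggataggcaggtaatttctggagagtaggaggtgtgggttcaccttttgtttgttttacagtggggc
Tgm5 (chr2:121085842-121085991, - strand): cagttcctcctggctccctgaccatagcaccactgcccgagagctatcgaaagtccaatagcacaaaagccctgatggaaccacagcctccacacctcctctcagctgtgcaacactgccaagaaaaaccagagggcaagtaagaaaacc
Tgm3 (chr2:130012190-130012339, + strand): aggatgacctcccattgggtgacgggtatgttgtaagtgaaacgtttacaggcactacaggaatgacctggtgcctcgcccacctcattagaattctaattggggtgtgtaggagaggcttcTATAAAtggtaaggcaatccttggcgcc
Tgm1 (chr14:55713493-55713692, - strand): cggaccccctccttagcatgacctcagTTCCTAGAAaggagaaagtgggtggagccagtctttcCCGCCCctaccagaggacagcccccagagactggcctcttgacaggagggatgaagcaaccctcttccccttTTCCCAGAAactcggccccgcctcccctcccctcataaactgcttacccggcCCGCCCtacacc

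The TATA box (TATAAA), found in 13.6% of 32851 windows, was present in Tgm3 only, 28 bases before the start. A GAS element (TTCNNNGAA, 8.30% of windows), to which STAT factors bind, was present in Tgm1 only, at 173 and 64 bases before the start, and a core of an ISRE (GAAA, any 2 bases, GAAA; 3.44%), the element of interferon-induced genes, lay 242 bases before it, outside of the printed stretch. GC boxes (GGGCGG, 35.7%) were found in Elovl4, Alox12b, and Tgm1, and a grainyhead site (AACNNGTT, 4.20%) in Tgm5 only, where it spans the start and is therefore not marked. An AP-1 site (TGANTCA, 7.81%) was found in 0 of the 8 genes. The stretch of Abca12 held none of the 6 motifs. These matches describe the letters of the windows and are no evidence of binding.

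Other genes of the same pathways were tested in the same fit, and edgeR called 0 of them. Of all genes tested, 4.12% were lower and 3.08% higher at an unadjusted p under 0.05, and DESeq2 called 1.49%. Of 30 further genes of acylceramide and ceramide synthesis and transport, 19 had log2 fold changes below 0 (median -0.31), and 9 were lower and 0 higher at an unadjusted p under 0.05 (DESeq2 called 1 lower). The lowest were Sptlc3 (-2.44), a subunit of serine palmitoyltransferase, Degs2 (-2.19), a ceramide hydroxylase, and Sdr9c7 (-1.82), a dehydrogenase that acts after the lipoxygenases. The highest were the ceramide synthases Cers2 (0.82), Cers4 (0.65), and Cers5 (0.57), with adjusted p = 0.679, 0.818, and 0.672. These 3 genes were more abundant in T cells than in keratinocytes alone, Cers2 for instance at 28.8 to 38.5 RPKM against 8.27 and 12.3 RPKM, and the part of T-cell RNA in their values was not tested.

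The proteins of the envelope are the substrates of the transglutaminases. Of 16 genes for cross-linked envelope proteins 15 were tested, 14 of them with log2 fold changes below 0 (median -2.72). At an unadjusted p under 0.05, 9 were lower, against 4.12% of all genes. DESeq2 called 6 lower, against 1.49% of all genes called in either direction. The lowest values were those of Hrnr (-5.44), Flg (-5.14), and Rptn (-4.89), which encode S100-fused proteins, and the highest were those of Sprr3 (-1.31), Sprr2d (-1.30), and Cstb (0.05). The last is an inhibitor of cathepsins and was at 318 to 409 RPKM in the 4 libraries. Of 12 genes for the processing of filaggrin 11 were tested, with 8 below 0 (median -1.11). Against the same shares of all genes, 5 were lower at an unadjusted p under 0.05, and DESeq2 called 4 lower. Here the proteases Klk5 (-4.27) and Klk7 (-2.26) and the protease inhibitor Cst6 (-2.99) were lowest, while the membrane proteases Prss8 (0.37) and St14 (0.15) and the hydrolase Blmh (0.06) were highest. Of these 3 lists, only the ceramide list had a median closer to 0 than that of the 9 genes.

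Other members of both enzyme families were hardly expressed. Tgm2, the widely expressed transglutaminase, showed 0.982 and 1.11 RPKM in keratinocytes alone and 2.65 and 1.74 RPKM after co-culture, without overlap (log2 fold change 1.12, SE 0.48, adjusted p = 0.658), and it was the only one of 5 further transglutaminase genes tested. Of 5 further lipoxygenase genes, Alox12 (-0.43) and Alox8 (0.39) were tested. The other genes of both lists did not pass the filter on low counts.

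Markers of keratinocyte layers gave the frame for these values, but Krt1 and Krt10 were also counted among the envelope proteins above. The 5 markers of differentiating keratinocytes were below 0 (median log2 fold change -3.04), with Krtdap (-3.89), Dsg1a (-3.13), and Krt1 (-3.04) lowest. An unadjusted p under 0.05 was found for 4 of the 5, against 4.12% lower of all genes (DESeq2 called 3, against 1.49%). Of the 5 basal markers 3 were below and 2 above 0 (median -0.55), from -1.45 for Col17a1 to 0.46 for Krt5, and 0 had an unadjusted p under 0.05. The 5 CD8 T cell markers were above 0 (median 0.96), with adjusted p = 0.703 to 0.804. The part of T-cell RNA in the values of the 9 genes was not tested.

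T cells that had not met keratinocytes carried almost no transcripts of these genes. In the 4 libraries of activated T cells and of T cells in keratinocyte medium, Alox12b, Abca12, Tgm3, Tgm5, and Casp14 had 0 reads, which allows up to 0.0857 RPKM for Alox12b and 0.0797 RPKM for Tgm5 at a limit of 3 reads per library. Aloxe3 had 2 reads and Cers3 4 reads, in the first library of activated T cells only. Elovl4 had 6 and 14 reads in activated T cells and 3 and 10 reads in medium (0.0642 to 0.321 RPKM). Tgm1 was the exception with 21 to 41 reads in each of the 4 libraries, i.e., 0.430 to 0.812 RPKM. Between T cells in medium and activated T cells, where 6.54% of the 11863 genes tested were called, the log2 fold change was 0.00 for Tgm1 (SE 0.80) and -0.60 for Elovl4 (SE 1.17), with adjusted p = 1 and 0.812.

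After co-culture with keratinocytes, reads of 8 of the 9 genes were found in T cells. Elovl4 was at 1.02 and 1.03 RPKM (47 and 44 reads), above all 4 other libraries. Tgm1 was at 1.72 and 0.939 RPKM (83 and 42 reads), also above these. Abca12 was at 0.151 and 0.155 RPKM (21 and 20 reads).

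Casp14 was at 0.631 and 0.561 RPKM (23 and 19 reads), and Tgm3 at 0.730 and 0.256 RPKM (46 and 15 reads). For the lipoxygenases and Cers3 the libraries did not match. Alox12b had 3 and 19 reads, whereas the reads of Aloxe3 (9) and Cers3 (48) were found in the first library only. Tgm5 had 0 reads in both, which allows up to 0.0754 and 0.0811 RPKM. Its mean was above that of Casp14 in keratinocytes alone (12.1 against 8.59 RPKM). In co-cultured keratinocytes it was below that of Casp14 (2.08 against 4.69 RPKM), with overlapping values.

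When co-cultured T cells were compared with T cells kept in keratinocyte medium, 0.261% of the genes tested were called, all of them higher. Of the 9 genes 5 were tested, and Elovl4, Abca12, Tgm3, and Casp14 passed the filter on low counts only through their reads in co-culture, so that no count over these genes is given. None of the 5 was called by edgeR or by DESeq2, which called 0.733% of the genes tested. The log2 fold change was 2.99 for Elovl4 (SE 1.21, unadjusted p = 0.0380, adjusted p = 1) and 1.17 for Tgm1 (SE 0.80, adjusted p = 1). The mean in co-culture was 7.19-fold the limit of 3 reads per library in medium for Abca12, 10.5-fold for Tgm3, and 7.35-fold for Casp14. These ratios leave out the spread between the co-cultured libraries, and in edgeR adjusted p were 0.998, 0.865, and 0.998. Activated T cells differ also by 1 d of culture and by the medium, and against them 10.3% of genes were called. In this comparison adjusted p were 0.221 for Elovl4, 0.0993 for Abca12, 0.382 for Tgm1, 0.079 for Tgm3, and 0.0975 for Casp14. Both comparisons share the co-cultured libraries.

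Transcripts of keratinocyte markers were found in the same libraries. Krt14 was at 61.6 and 16.8 RPKM in co-cultured T cells and at 0.350 to 1.06 RPKM in the other 4 T-cell libraries (adjusted p = 0.0449 against medium), and Krt5 at 5.74 and 2.38 RPKM against 0.118 to 0.253 RPKM. As a percentage of the mean in keratinocytes alone, Krt14 was at 0.772% and 0.210% and Krt5 at 0.180% and 0.0745% in the first and the second library. The 9 genes did not follow one ratio. Abca12 was at 0.327% and 0.335% and Elovl4 at 1.30% and 1.31%. Tgm1 was at 1.56% and 0.850%, which includes the reads that T cells carried without keratinocytes.

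Above these stood Casp14, at 7.35% and 6.53% of keratinocytes alone, and Tgm3, at 74.8% and 26.2%. Aloxe3 was at 18.0% in the first library, on 9 reads, and at 0 in the second. The mean level of Tgm3 in co-cultured T cells (0.493 ± 0.335 RPKM) was 775% of that in co-cultured keratinocytes (0.0636 ± 0.0900 RPKM), and both T-cell libraries were above both of these. Of the 5 markers of differentiating keratinocytes, Sbsn was at 6.68% and 7.15% and Krtdap at 10.8% and 54.0%, but Dsg1a at 1.00% and 0.636% and Krt1 at 0 and 2.44%. Krt10 was not higher than in T cells without keratinocytes, where it reached 1.21 RPKM. Of the pathway lists, Ctsl, which encodes cathepsin L, was called higher than in medium (adjusted p = 0.0131), with 2431 and 2264 reads against 205 and 312. Klk7, Asprv1, Spink5, Cst6, Sprr1a, and Sprr1b were called as well, but had 0 to 7 reads in medium and were tested only through their reads in co-culture. Klk7, a protease of corneocyte shedding, was at 56.3 and 51.1 RPKM in co-cultured T cells, at 0 in the other 4 T-cell libraries, and at 10.2 and 13.98 RPKM in co-cultured keratinocytes. Sprr1a, a substrate of transglutaminases, was at 429 and 306 RPKM in co-cultured T cells and at 685 and 78.5 RPKM in co-cultured keratinocytes. The part of RNA or cells from keratinocytes in these libraries was not tested.

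**Figure D4:**
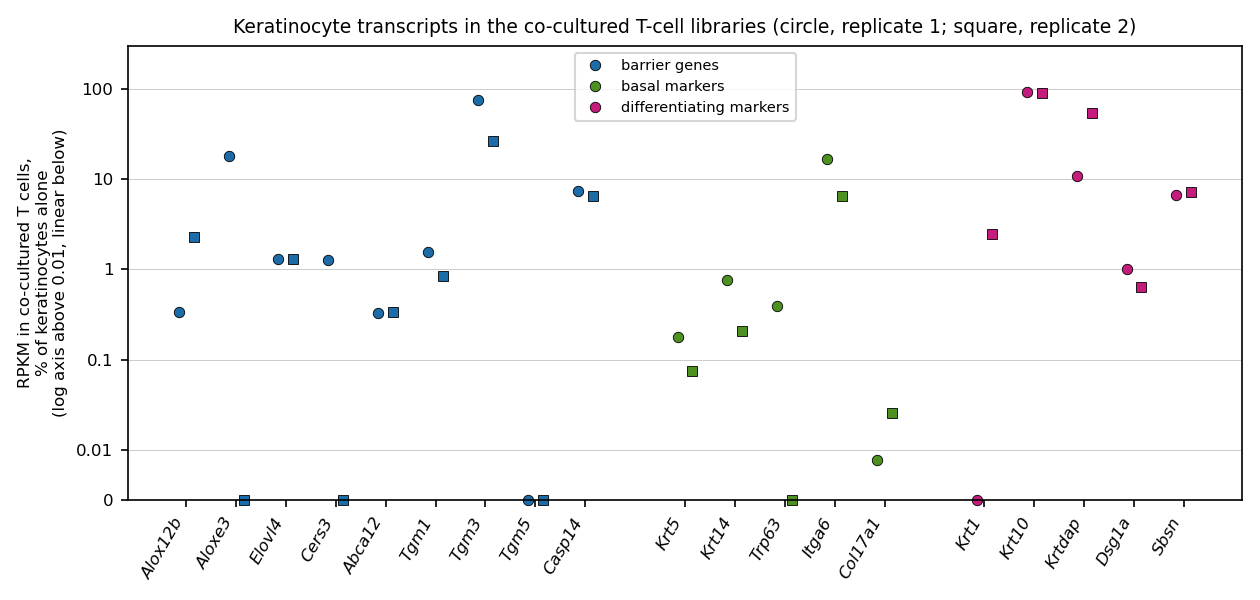
Level of the 9 barrier genes, 5 basal, and 5 differentiating keratinocyte markers in the co-cultured T-cell libraries, in percent of the mean RPKM in keratinocytes alone (axis logarithmic above 0.01, linear below; circle and square, both libraries). Basal Krt5 and Krt14 lie under 1%, Alox12b, Elovl4, Abca12, and Tgm1 between 0.327% and 2.31%, and Casp14, Tgm3, Sbsn, and Krtdap above 6%; Krt10 and Itga6 are also found in T cells without keratinocytes.

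Reads that cross from exon to exon were used to describe these transcripts further. In the 4 keratinocyte libraries together, 10.3% of the exon reads of Elovl4 were exon-exon reads (1249 of 12165), but in co-cultured T cells 0 of 91, which allows a share of up to 3.30% at a limit of 3 reads (upper bound of the 95% exact Clopper-Pearson interval, 3.97%). For Abca12, 31.2% were exon-exon reads in keratinocytes. In co-cultured T cells it was 18 of 21 in the first library (85.7%, 95% exact Clopper-Pearson interval 63.7 to 97.0%) and 0 of 20 in the second, which allows up to 15.0% at 3 reads (upper bound of the interval, 16.8%). Thus libraries with the same level of Abca12 differed in the kind of its reads. The second library also held 17 reads on introns of Abca12, the first 3, and T cells without keratinocytes 0 to 6.

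For Tgm3, 24 of 61 reads in co-cultured T cells were exon-exon reads (39.3%, interval 27.1 to 52.7%), a share not below that of keratinocytes (23.8%, interval 17.3 to 31.4%). Casp14 had 2 of 42 (4.76%, interval 0.582 to 16.2%), against 14.1% in keratinocytes, which is within the interval. The reads of Tgm1 in T cells without keratinocytes were spliced, with 55 of 126 (43.7%, interval 34.8 to 52.8%), against 29.6% in keratinocytes. Limits and intervals cover counting error only, because a molecule may be counted by several of its PCR copies.

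A possible difference of the co-culture effect between both cell types was tested in one fit of 8 libraries, with T cells in keratinocyte medium as the reference of the T cells. EdgeR called 0.576% of 13202 genes and 0 of the 9 barrier genes. DESeq2 called 2.82% of 12690 genes, among them Alox12b, Elovl4, Abca12, Tgm3, and Casp14. Of these genes all but Elovl4 had 0 reads in T cells in medium and were tested only through the groups where they are high, so that no count over them is given in support. The difference of the log2 fold changes was -3.93 for Elovl4 (SE 0.75, adjusted p = 0.0973) and -1.31 for Tgm1 (SE 0.71, adjusted p = 0.828), the genes with reads in all libraries. For Casp14, Abca12, Tgm3, and Alox12b adjusted p were 0.0679, 0.240, 0.218, and 0.342. No value could be estimated for Tgm5, which had 0 reads in T cells.

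The genes most like each of the 9 genes were searched among 11800 genes with a mean of 1 RPKM or more in at least 1 group. Likeness was the root mean square difference between gene-centred log2(RPKM + 1) values over all 10 libraries, and it is a description only, since keratinocyte and T-cell libraries form separate clusters. Closest were Wnt7b, Irx2, and 2200002D01Rik to Alox12b (0.224 to 0.251), Pdzk1ip1, Serpinb8, and Efna3 to Elovl4 (0.252 to 0.301), and Lrrn4cl, Cttn, and Prss27 to Cers3 (0.283 to 0.308). Plekhg6, Myh14, and Myof were closest to Abca12 (0.176 to 0.249) and Dst, Bhlhe41, and Ly6g6e to Tgm5 (0.200 to 0.249). Cwh43, Timp3, and Rnd3 were closest to Tgm1 (0.202 to 0.252) and Ccdc120, Lzts2, and Rbm47 to Casp14 (0.229 to 0.252). For the genes with the lowest levels these were Il1f8, Gm43191, and Lrrc27 to Tgm3 (0.143 to 0.187) and Rab22a, Fbxo30, and Pip4k2c to Aloxe3 (0.0814 to 0.119), where small distances reflect the narrow range of such values. The 9 genes themselves were left out of this search, so it does not show how alike they are to each other.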

How the data were processed

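Libraries had been prepared by the authors from 20 ng RNA with NEBNext poly(A) selection and the Ultra II kit and sequenced as single-end reads on a HiSeq2500. The authors mapped them to GRCm38 with the CLC Genomics Workbench at default settings and deposited, per library and gene, counts of all, unique, exon-exon, and intron reads. The deposited RPKM values (written with decimal commas) are exon reads that the authors scaled to exon length and to the number of mapped reads. The annotation release and the counting options are not given in the sources used here.

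Groups came from the labels. Numbers of T cells in medium and in co-culture are accession order. Exon read counts were fitted over all genes by the quasi-likelihood method of edgeR 4.0.16 (TMM scaling, filterByExpr, glmQLFit, glmQLFTest; R 4.3.3), with Benjamini-Hochberg adjustment and a threshold of 0.05, separately for 4 keratinocyte and 6 T-cell libraries, and for 8 libraries with an interaction. An exact permutation test of 2 against 2 libraries cannot give p under 0.333. Per group, replicate counts differed far beyond sampling noise (chi-square per degree of freedom 89.1 to 198.5), so all 10 libraries were kept. The fits were first run on simulated counts, whose spread was capped and which held no length trend. That run therefore does not show their power in these libraries.

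As alternatives served scaling by library size only, omission of the filter, a minimum of 10 reads in every library, unique reads, one fit of all 10 libraries, omission of each library, the replicate number as a block, DESeq2 1.42.0, and limma 3.58.1 on log2(RPKM + 0.1) or log2(RPKM + 1). Removal of the length trend, alone or with the block, and non-overlap in TMM-scaled CPM were chosen after seeing the data. The 9 genes and all gene lists were chosen with earlier results of these data known. All 9 genes are named. Of each list, called genes (up to the 5 largest changes) or the 3 highest and 3 lowest were named, and genes outside of this rule (Cd4, Cd8a, and marker genes given as values) were named after their values had been seen. Coordinates of all 9 genes are the same in GENCODE vM21. Python 3.11.15, pandas 2.3.3, scipy 1.17.1, and matplotlib 3.10.9 were used for tables and plots.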

Additional observations from a re-analysis of the deposited data

Results flagged for a closer look

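For 3 genes all libraries moved in opposite ways. Elovl4, Abca12, and Tgm3 were lower in both co-cultured keratinocyte libraries than in both libraries of keratinocytes alone, and higher in both co-cultured T-cell libraries than in both libraries of T cells in keratinocyte medium. Since the genes were picked for this pattern, the values of edgeR's fit of 8 libraries for the difference between the effects are a description only, with adjusted p = 0.0973 for Elovl4, 0.240 for Abca12, and 0.218 for Tgm3. Abca12 and Tgm3 had 0 reads in T cells in medium, and their levels in co-cultured T cells rest on 15 to 46 reads per library. Both genes were therefore tested in T cells only through their reads in co-culture. Of all genes tested, 24.3% were lower without overlap in RPKM in co-cultured keratinocytes. In co-cultured T cells 14.2% were higher without overlap than in medium. The share of genes with both was not counted.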

How the results depend on the processing

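With 2 libraries per group and reads of single digits for some genes in T cells, depth limits the statements on Tgm3, Aloxe3, and the T-cell libraries, and the distance between both co-cultured keratinocyte libraries those on keratinocytes. Of 134 recomputed log2 fold changes of the 9 genes in keratinocytes, 121 kept direction and side of the threshold and 7 reversed. In keratinocytes 0 of the 9 genes were called, 1 (Tgm5) with DESeq2 and 1 (Tgm5, log2 fold change -2.64, adjusted p = 0.00335) with the replicate block and the length trend removed, and 0 to 4 with each library left out. Without the first co-cultured library, which leaves a single one with a spread assumed from keratinocytes alone, adjusted p were 0.0405 for Cers3, 0.00633 for Abca12, 0.0293 for Tgm3, and 0.0115 for Tgm5. With the replicate block alone it was 0.111 for Tgm5 and the log2 fold change -2.52 (standard error 0.38). Libraries with the same number deviated together (r = 0.558 over 12515 genes, 2 pairs), which with 2 pairs does not show a pairing. The count of genes without overlap was 5 on RPKM and on TMM-scaled CPM. Between co-cultured and activated T cells edgeR called none of the barrier genes tested, whereas DESeq2 called Tgm3, along with 19.8% of all genes tested. Calls also appeared without a filter (Tgm3), with both forms of limma, and with all 10 libraries in one fit. Over the alternatives that kept all libraries, 0 to 2 of the barrier genes and 1158 to 2425 of all genes were called. Abca12, Tgm3, and Casp14 had 0 reads in activated T cells and were tested only through groups where they are high. For the difference between the cell types edgeR called 0 of them (0.576% of all genes tested), but DESeq2 5 (2.82%) and edgeR without a filter 3. Of the 5 genes all but Elovl4 had 0 reads in T cells in medium. They were tested only through groups where they are high, so these counts do not support a difference. With each library left out, the difference ran from -5.00 to -3.31 for Elovl4 and from -1.98 to -0.86 for Tgm1, the genes with reads in all libraries. Genes called among all tested in keratinocytes went from 0 to 186 with DESeq2, 11 without a filter, 4 with all 10 libraries in one fit, 2 with the block, 515 with the block and the length trend removed, and 0 to 1164 with a library left out. Over the alternatives they were 24 to 1947 (776 as reported) for T cells in medium against activated, 0 to 141 (31) for co-culture against medium, 266 to 2425 (1222) against activated, and 0 to 358 (76) for the difference between cell types. The sign of Aloxe3 in keratinocytes reversed to -0.0157 with library size, to -0.00013 with limma on log2(RPKM + 1), and to -0.0188 with the length trend removed, and it ran from -0.27 to 0.45 with a library left out. That of Tgm1 ran from -0.84 to 0.35. In T cells in medium against activated, Tgm1 reversed to 0.0363 with DESeq2, 0.0136 without a filter, 0.0635 with all 10 libraries in one fit, and 0.0183 with the length trend removed, and ran from -0.55 to 0.44 with a library left out, and Elovl4 from -1.67 to 0.35. The difference between cell types of Aloxe3 ran from -6.26 to 0.0345, the latter without the first co-cultured T-cell library. The cause of these changes was not tested.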
